A study of Mus musculus with 84 samples.

Results

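The signal recognition particle and its receptor were followed through 10 listed genes: Srpr and Srprb, the receptor subunits, Srp9, Srp14, Srp19, Srp68 and Srp72, protein subunits of the particle, and Sec61a1, Sec61b and Sec62, parts of the protein channel of the endoplasmic reticulum. Srpr is called Srpra in newer tables. The set was chosen by the measured levels of Srpr, which were far lower after the drug, so the values of Srpr are given as a description with no test, and only the other 9 genes were tested. All 10 were matched by symbol among the 55401 gene IDs of the count tables, and all 10 passed the filter on low counts that left 17941 genes. RNA came from nuclei that carry NeuN, a protein of neuronal nuclei, sorted from the frontal cortex of 129S6/SvEvTac mice aged 12 weeks. Mice received either vehicle or 1 injection of DOI (2,5-dimethoxy-4-iodoamphetamine), an agonist of the serotonin 2A receptor with psychedelic effects, and were sampled 24 h, 48 h or 7 days later. There were 4 mice in each of the 4 groups, and 2 libraries had been made from each of the 16 mice. The 3 drug groups share the same 4 vehicle mice, so their comparisons with vehicle are not independent of each other. The sort takes nuclei of all neuron types together. A change in their mixture, or in the share of other cell types, cannot be told apart from a change of RNA per nucleus.

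The signal recognition particle is a complex of an RNA and several proteins that binds the signal sequence of a new protein as it leaves the ribosome. It slows translation and brings the ribosome to its receptor on the membrane of the endoplasmic reticulum, where the growing chain is handed to the Sec61 channel. Neurons depend on this route for receptors, ion channels and secreted peptides. In the receptor, the alpha subunit encoded by Srpr is the GTPase that meets the particle, and the beta subunit encoded by Srprb anchors it in the membrane.

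The Srpr model that was counted reaches beyond the gene's usual bounds. In the GRCm38 annotation of the files it spans chr9:35200175-35247973 on the plus strand with 16 exon blocks and 3364 exon bases, whereas RefSeq on GRCm38.p6 places Srpr within 5801 bases, at chr9:35211203-35217003. Inside the RefSeq span lie 3032 of the exon bases, and 2 blocks lie wholly outside it, a first block of 39 bases and a last block of 234 bases. The span covers the whole of Foxred1 and parts of Tirap and Fam118b, all on the other strand. Foxred1 and Tirap fall within it because of the first block, whereas Fam118b already meets the end of the RefSeq gene. Foxred1 encodes a mitochondrial factor for the assembly of respiratory complex I and Tirap an adaptor of Toll-like receptor signalling. Exon bases shared with Srpr number 39 for Tirap (1.16% of the Srpr exon bases), 50 for Fam118b (1.49%) and 0 for Foxred1. Reads on shared bases are left out under the default of the counting tool, and the counting named no strand option. The shared bases are thus a small part of Srpr, and none of them belongs to Foxred1.

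**Figure D1:**
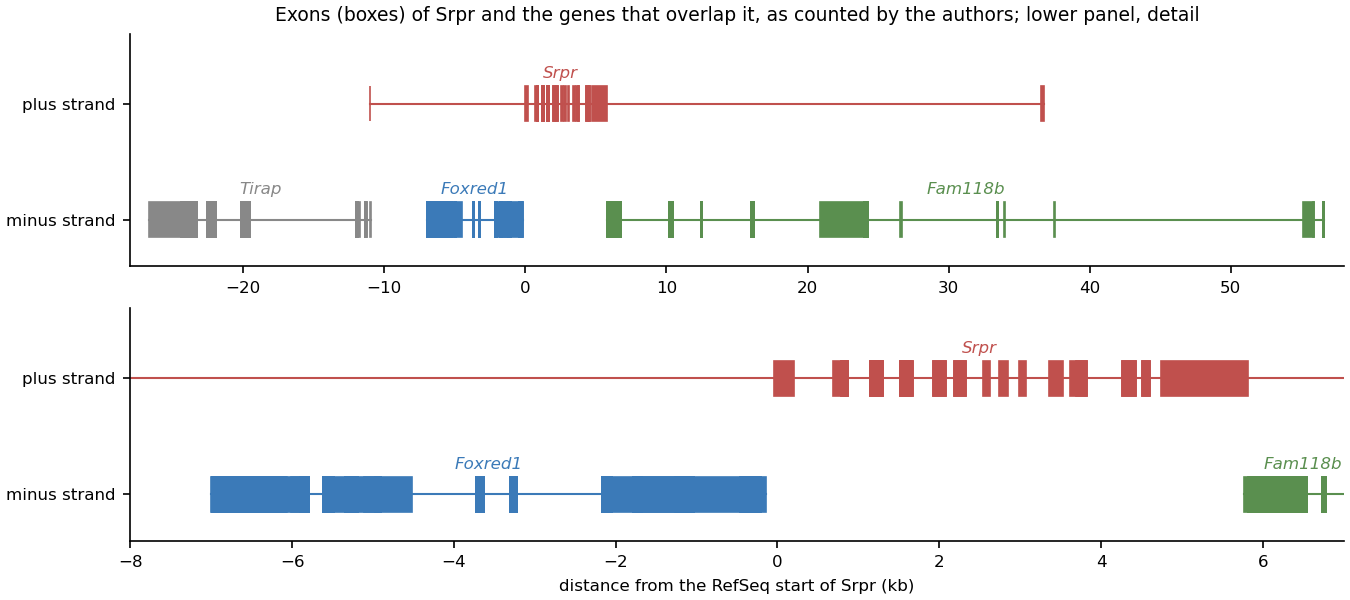
Exon blocks (boxes) of Srpr on the plus strand and of Tirap, Foxred1 and Fam118b on the minus strand, against the distance in kb from the RefSeq start of Srpr, with a detail in the lower panel. All but 2 of the 16 Srpr blocks lie in or overlap the RefSeq gene, and Foxred1 begins just before it in the opposite direction.

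Foxred1 and the second Srpr block, which holds the RefSeq start, face away from each other with 99 bases between them. This interval is shown because both genes read outward from it. It is taken from the RefSeq promoter table for GRCm38.p6 at chr9:35211056-35211154, plus strand, and the capitals mark 1 CCAAT box (read on the other strand) and 2 GC boxes (GGGCGG, 1 on each strand).
Foxred1 and Srpr interval: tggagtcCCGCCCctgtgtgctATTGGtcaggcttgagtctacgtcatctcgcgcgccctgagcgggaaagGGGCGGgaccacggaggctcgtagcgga
The interval is 65.7% G or C and holds 10 CG dinucleotides. Of 32851 RefSeq promoters searched on both strands, 18.1% held CCAAT and 19.0% held GGGCGG in the window placed as this interval is for Srpr, 99 bases long and ending 48 bases before the RefSeq start. The letters TATAAA, present in 4.1% of those windows, and CCGGAAG, the core of ETS factor sites, present in 2.6%, were not in the interval. Over the 250 bases before the start, 7 members had an entry: CCAAT was found in Srpr alone, GGGCGG in Srpr, Srp9 and Sec61b, CCGGAAG in Srp72 and TATAAA in none. In all promoters these shares over 250 bases were 33.8%, 32.7%, 6.9% and 12.4%.

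Vehicle mice had total counts between 9151680 and 11517452, 24 h mice between 6441396 and 8090559, 48 h mice between 5834248 and 7344355 and 7-day mice between 6972577 and 12354785. Levels are given as CPM, counts of a gene scaled to a common total, with TMM scaling between mice. A count of 3, taken as the lowest detectable, corresponded to 0.243 to 0.514 CPM depending on the mouse, and this covers counting error only. Counts on a pseudogene of 18S ribosomal RNA were 0.00694% to 0.0101% of the total with vehicle, 0.328% to 1.57% at 24 h and 0.523% to 1.66% at 48 h, so this share did not overlap between vehicle and either early group and cannot be told apart from them. At 7 days it was 0.00835%, 0.633%, 0.00607% and 0.474% in mice 1 to 4, so mice 2 and 4 stood with the early groups and mice 1 and 3 with vehicle. Mitochondrial genes held 0.0171% to 0.0701% of counts in vehicle mice, 0.0621% to 0.101% in 24 h mice, 0.108% to 0.268% in 48 h mice and 0.0210% to 0.130% in 7-day mice. This share did not overlap between vehicle and 48 h, so at 48 h it cannot be told apart from the group either. Mouse 1 at 24 h and mouse 1 at 48 h had the fewest genes detected, 22989 and 21266. Rbfox3, the gene of NeuN, was at 46.3 to 68.1 CPM with vehicle, 88.4 to 115 CPM at 24 h, 83.9 to 109 CPM at 48 h and 59.3 to 112 CPM at 7 days. The 7 neuron markers, Rbfox3 among them and all detected in every group, summed to 6268 to 6618 CPM in vehicle mice, 4451 to 6253 CPM in 24 h mice, 4067 to 6199 CPM in 48 h mice and 4763 to 6526 CPM in 7-day mice. The sum was thus lower than vehicle without overlap at 24 h and 48 h, while Rbfox3 itself was higher without overlap. Summed over markers, astrocyte genes (6 of 6 detected) were at 622 to 690 CPM in vehicle mice, 704 to 1099 CPM in 24 h mice (all above vehicle), 604 to 1049 CPM in 48 h mice and 440 to 713 CPM in 7-day mice. Oligodendrocyte sums (5 of 5) were at 148 to 325, 148 to 227, 174 to 228 and 195 to 341 CPM, and microglia sums (6 of 6) at 83.5 to 122, 49.6 to 107, 54.1 to 88.2 and 53.6 to 143 CPM in the same order. Endothelial sums of 5 markers were at most 13.6 CPM in any mouse, with Cldn5 at 0 in all vehicle mice and Cdh5 at 0 in all mice at 7 days. The part of these marker differences in the results below was not tested.

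Srpr, the receptor alpha subunit, had the widest range of levels of the members as a ratio, though not in CPM. In vehicle mice 1 to 4 it stood at 129, 108, 116 and 88.3 CPM. At 24 h the 4 mice were at 6.4, 9.08, 6.47 and 7.46 CPM. At 48 h they were at 10.6, 6.70, 13.3 and 6.91 CPM. Every mouse at these times lay far below every vehicle mouse. The mean was 110 ± 17.0 CPM (SD, n = 4) with vehicle, 7.35 ± 1.25 (SD, n = 4) at 24 h and 9.38 ± 3.18 (SD, n = 4) at 48 h, which is 6.66% and 8.51% of the vehicle mean. On the log2 scale the differences from vehicle were -3.91 (SE 0.63) and -3.55 (SE 0.62), read only as sizes because the gene was chosen for them. They were -0.63 and -0.095 when the 18S pseudogene share was a covariate, and -3.1 and -2.06 when the mitochondrial share was. Counts behind the low values were 42 to 63 per mouse at 24 h and 40 to 90 at 48 h, against 907 to 1365 with vehicle.

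At 7 days Srpr fell into 2 separate levels. Mice 1 and 3 were at 94.3 and 85.7 CPM, beside the lowest vehicle mouse, and mice 2 and 4 at 8.07 and 7.28 CPM, within the range of the early mice. The mean of 48.8 ± 47.7 CPM (SD, n = 4) describes none of the 4 mice, and the log2 difference from vehicle, -1.17 (SE 0.56), averages over them. The 2 libraries of each mouse gave the same picture: 92.5 and 95.9 CPM in mouse 1, 8.28 and 7.79 in mouse 2, 88.7 and 82.5 in mouse 3, and 9.65 and 5.05 in mouse 4. Mice 2 and 4 are also the mice with the higher 18S pseudogene share. Their mitochondrial share was higher too, at 0.130% and 0.114%, against 0.0413% and 0.0210% in mice 1 and 3. The header of mouse 2 carries another mouse number than its label, within the same group.

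Srprb, the membrane-anchored beta subunit of the receptor, did not share the low values of Srpr. Vehicle mice were at 11.0, 10.1, 7.57 and 9.25 CPM. At 24 h they were at 16.2, 14.1, 16.1 and 14.4 CPM, all above the highest vehicle mouse. Srprb rose at 24 h by 0.68 on the log2 scale (SE 0.23, adjusted p = 0.0361), from a mean of 9.47 ± 1.45 CPM (SD, n = 4) to 15.2 ± 1.07 (SD, n = 4). This call passed in none of the 8 fits that each left out 1 of the 8 mice compared, with adjusted p from 0.053 to 0.104, each vehicle and each 24 h mouse included. It was also lost with no filter (adjusted p = 0.232), with library 2 of each mouse alone (0.174) and with a replicate block (0.0615), and held in the other 7 planned settings. None of the 4 settings added after seeing the data called it. At 48 h the mice were at 10.0, 12.1, 15.7 and 14.0 CPM, overlapping vehicle, with a log2 difference of 0.45 (SE 0.23, adjusted p = 0.138). At 7 days they were at 14.4, 14.5, 12.3 and 16.5 CPM, all above vehicle and without the separation seen in Srpr, with a log2 difference of 0.60 (SE 0.23, adjusted p = 0.192). Srprb was the least abundant member per kilobase of exon in vehicle mice, at 2.21 ± 0.34 CPM per kb (SD, n = 4).

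**Figure D2:**
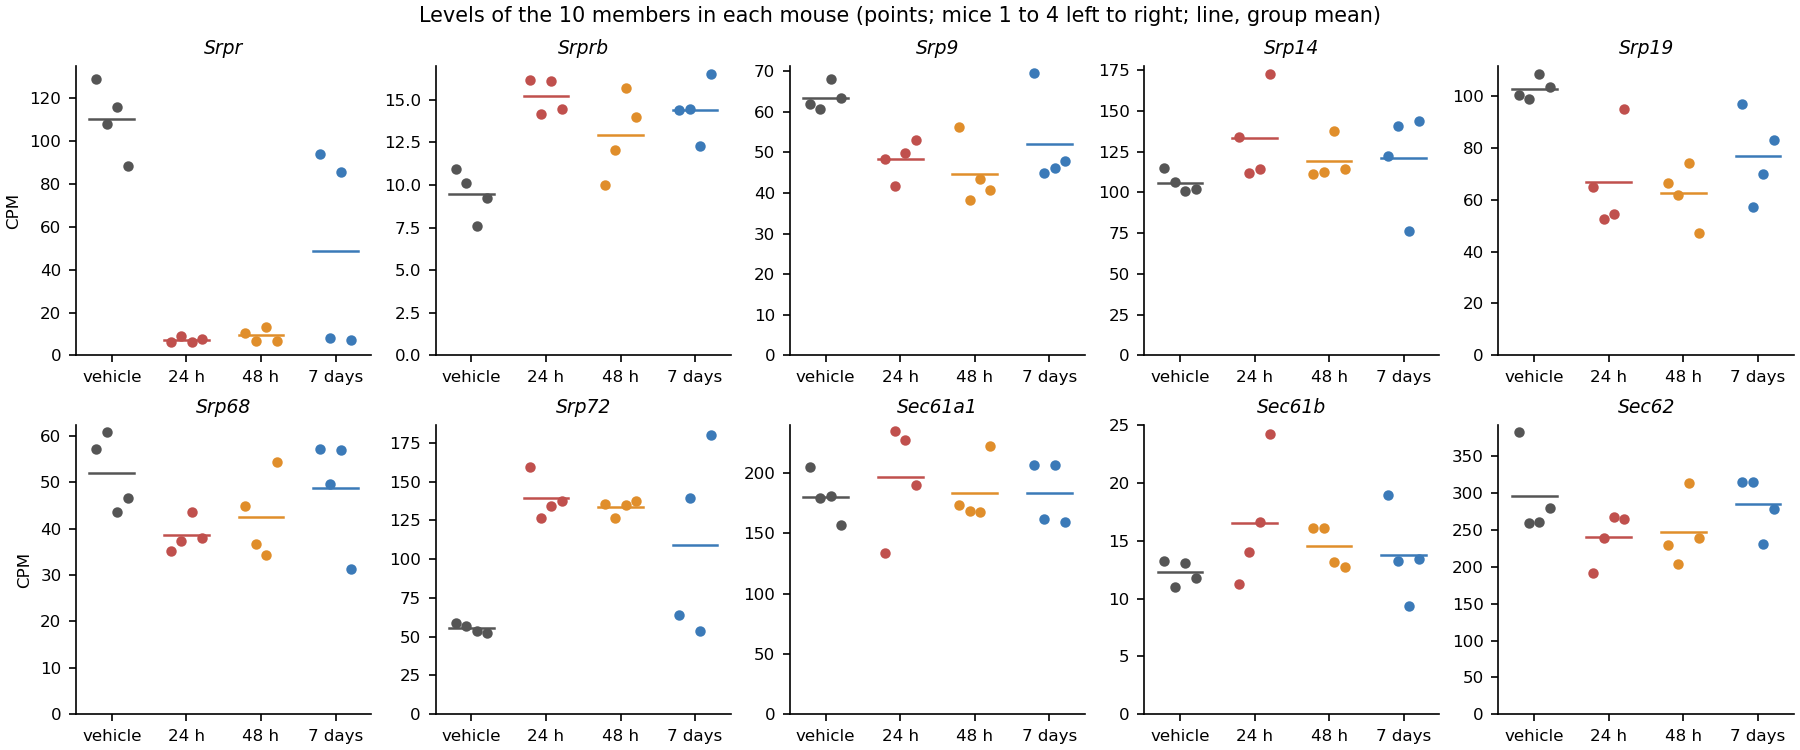
Level of each member in CPM (vertical axis, linear from 0, its own scale in each panel) by group, 1 point per mouse with mice 1 to 4 from left to right and a line at the group mean. Srpr is low in all 8 mice of 24 h and 48 h and in 2 of 4 at 7 days, while Srp72 is high in the same mice.

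Of the 9 members other than Srpr, 3 passed the threshold at 24 h (Srp72 and Srprb higher, Srp19 lower) and 3 at 48 h (Srp72 higher, Srp9 and Srp19 lower). Over all genes tested, 24.2% passed at 24 h and 30.1% at 48 h, so the members' share of 33.3% at each time was near the background. Higher calls made up 13.8% and 16.8% of all genes at the respective times, and lower calls 10.4% and 13.3%. The median log2 difference of the 9 was 0.12 at 24 h and 0.02 at 48 h, beside 0.03 and 0.02 over all genes. With each of the 8 compared mice left out in turn, 1 or 2 members were called at 24 h and 2 or 3 at 48 h, in fits that called 13.9% to 21.2% and 19.0% to 26.4% of all genes. Left out singly, 24 h mice 1 to 3 and vehicle mice 1 to 4 each left 1 call at 24 h, and 24 h mouse 4 left 2. With the 18S pseudogene share as a covariate, an alternative chosen after seeing the data, no gene of the 17941 was called at either time (no member even at an unadjusted p below 0.05), and with the mitochondrial share 0 members were called at both, where 1.47% of all genes were called at 24 h and 0% at 48 h. Below an unadjusted p of 0.05 stood 4 members at 24 h and 3 at 48 h, where 38.4% and 42.9% of all genes did. Groups did not overlap for 4 of the 9 members at 24 h and for 3 at 48 h, where 35.7% and 38.1% of all genes did not overlap.

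Srp72, which with Srp68 forms the largest protein pair of the particle, rose at both early times and was the member with the firmest call. Vehicle mice were at 58.5, 56.7, 53.9 and 52.5 CPM. At 24 h the mice were at 159, 127, 135 and 137 CPM, and at 48 h at 135, 127, 135 and 138 CPM. No early mouse came near a vehicle mouse. The mean went from 55.4 ± 2.74 CPM (SD, n = 4) to 139 ± 13.9 (SD, n = 4) at 24 h and 134 ± 4.85 (SD, n = 4) at 48 h. The log2 differences were 1.33 (SE 0.28, adjusted p = 0.00404) and 1.27 (SE 0.28, adjusted p = 0.0041). Both calls held in all 8 fits that left out a mouse and in all 10 other planned settings, and both were lost with the 18S pseudogene share as a covariate, where the values were 0.04 and -0.11 (adjusted p = 0.991 and 0.996), and with the mitochondrial share (adjusted p = 0.0939 and 0.609). No gene overlaps Srp72, which lies at chr5:76974683-76999937 on the plus strand.

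At 7 days Srp72 divided the mice as Srpr did, in the opposite sense. Mice 1 and 3 were at 64.3 and 53.5 CPM, about the vehicle level, and mice 2 and 4 at 140 and 180 CPM. The log2 difference from vehicle was 0.98 (SE 0.27, adjusted p = 0.109), which did not pass. It passed without mouse 1 (1.17, adjusted p = 0.0141) and without mouse 3 (1.21, adjusted p = 0.01), and it was 0.84 (adjusted p = 0.415) and 0.64 (adjusted p = 0.437) without mouse 2 and without mouse 4. The fits without mouse 1 and without mouse 3 called 7.26% and 6.29% of all genes. DESeq2 called Srp72 as well (adjusted p = 0.0241), in a fit that called 4.44% of all genes.

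Srp68, the partner of Srp72 on the particle's RNA, did not show that rise. Vehicle mice were at 57.1, 60.8, 43.5 and 46.6 CPM, mice at 24 h at 35.2, 37.4, 43.6 and 38.0 CPM and mice at 48 h at 44.9, 36.7, 34.2 and 54.2 CPM. Values overlapped at both times. The log2 differences of -0.43 (SE 0.21, adjusted p = 0.137) and -0.29 (SE 0.21, adjusted p = 0.300) did not pass. At 7 days the mice were at 57.1, 49.5, 57.0 and 31.3 CPM.

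Srp19, which binds the particle's RNA early in its assembly, fell at both early times. Vehicle mice were tightly grouped at 100, 98.6, 108 and 103 CPM. At 24 h the mice were at 64.9, 52.4, 54.4 and 95.0 CPM, so mouse 4 stood close to vehicle. At 48 h they were at 66.3, 61.8, 74.3 and 47.1 CPM, all below vehicle. The log2 difference was -0.62 at 24 h (SE 0.21, adjusted p = 0.0388) and -0.72 at 48 h (SE 0.21, adjusted p = 0.0173). The 48 h call held in all 8 fits that left out a mouse, and the 24 h call in 1 of 8, the fit without mouse 4 of 24 h, with adjusted p from 0.0164 to 0.1 over the 8. The 24 h call was also lost with scaling by total counts (adjusted p = 0.0791), a filter of 10 CPM in 4 mice (0.055) and library 1 alone (0.0881). At 7 days the mice were at 96.7, 57.3, 69.8 and 83.0 CPM, below every vehicle mouse, and the difference of -0.42 (SE 0.21, adjusted p = 0.318) did not pass.

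Srp9 and Srp14 bind together to the Alu domain of the RNA, the part that slows translation. Srp9 was at 61.9, 60.7, 68.0 and 63.3 CPM with vehicle, at 48.4, 41.8, 49.8 and 53.0 CPM at 24 h and at 56.2, 38.2, 43.4 and 40.8 CPM at 48 h. All 8 early mice were below all vehicle mice. Srp9 fell at 48 h (-0.51, SE 0.18, adjusted p = 0.0414), a call that held in 1 of 8 fits with a mouse left out, the fit without mouse 1 of 48 h, with adjusted p from 0.0212 to 0.113. It was also lost with scaling by total counts (adjusted p = 0.0879), no filter (0.0883), the filter of 10 CPM (0.0518) and library 2 alone (0.118). At 24 h the difference of -0.39 (SE 0.18, adjusted p = 0.115) did not pass, and at 7 days it was -0.28 (SE 0.18, adjusted p = 0.445). Srp14 was at 115, 107, 101 and 102 CPM with vehicle, at 134, 112, 114 and 173 CPM at 24 h and at 112, 113, 138 and 114 CPM at 48 h. Its log2 differences of 0.33 (SE 0.19, adjusted p = 0.222), 0.17 (SE 0.19, adjusted p = 0.539) and, at 7 days, 0.19 (SE 0.19, adjusted p = 0.649) did not pass, and a difference between Srp9 and Srp14 was not tested. The Srp14 values were negative at all 3 times (-0.23, -0.43 and -0.0736) with the 18S pseudogene share as a covariate.

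The channel genes gave no call at any time. Sec61a1, the pore-forming subunit, was at 205, 180, 181 and 157 CPM with vehicle, at 134, 235, 228 and 190 CPM at 24 h, at 173, 169, 168 and 223 CPM at 48 h and at 207, 162, 207 and 159 CPM at 7 days. The groups overlapped throughout, and the log2 differences were 0.12, 0.02 and 0.03 (SE 0.19 each, adjusted p = 0.653, 0.938 and 0.959). Sec61b, a small subunit at the side of the pore, was at 11.0 to 13.2 CPM with vehicle and 11.3 to 24.3 CPM at 24 h, with differences of 0.43, 0.24 and 0.16 at the 3 times (SE 0.27 each, adjusted p = 0.240, 0.512 and 0.786). Sec62, which assists entry of chains that are already finished, was at 259 to 383 CPM with vehicle, 192 to 267 CPM at 24 h, 204 to 315 CPM at 48 h and 231 to 315 CPM at 7 days. Its differences were -0.30, -0.26 and -0.05 (SE 0.19 each, adjusted p = 0.250, 0.295 and 0.906).

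**Figure D3:**
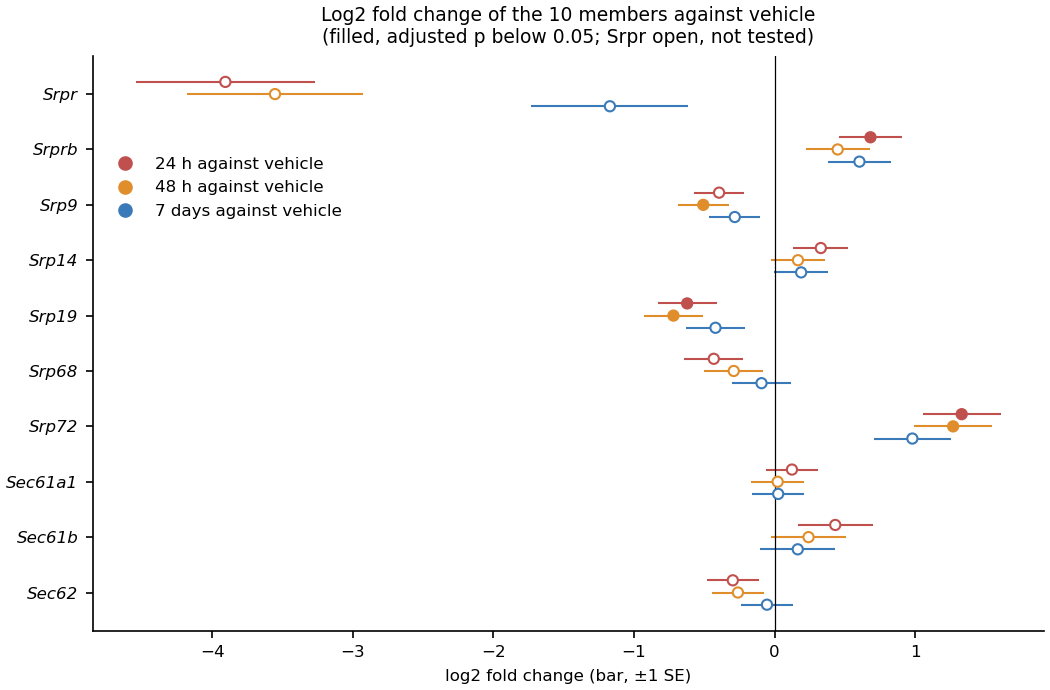
Log2 fold change against vehicle (horizontal axis, with 0 marked) of the 10 members at 24 h, 48 h and 7 days, with bars of 1 SE. Filled points have an adjusted p below 0.05, and Srpr is drawn open because it was not tested. Srpr lies at -3.91 and -3.55 at the early times, while the other members lie between -0.72 and 1.33.

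At 7 days no member passed against vehicle, where 0% of all genes tested passed in edgeR. Below an unadjusted p of 0.05 stood 2 members, Srp72 and Srprb, where 16.8% of all genes did, and the groups did not overlap for 2 members, Srprb and Srp19, against 5.85% of all genes. DESeq2 called 1 member, where it called 4.44% of all genes, and limma voom 0, where it called 0%. Between drug groups no member passed either: 0 of 9 from 24 h to 48 h, 0 of 9 from 48 h to 7 days and 0 of 9 from 24 h to 7 days, also with DESeq2 and limma voom, where 0%, 0% and 0.00557% of all genes passed in edgeR, 0%, 2.41% and 2.19% in DESeq2 and 0%, 0% and 0.117% in limma voom. In edgeR none of the 9 was below an unadjusted p of 0.05 in those 3 comparisons, where 1.88%, 16.5% and 14.2% of all genes were.

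Per kilobase of exon, the order of the members' levels in vehicle mice ran from Srp14 at 88.8 ± 5.46 CPM per kb (SD, n = 4) through Sec62 at 68.1 ± 13.6, Srpr at 32.8 ± 5.06, Srp19 at 28.3 ± 1.17, Sec61a1 at 26.8 ± 2.91, Srp68 at 19.0 ± 3.02, Srp9 at 11.5 ± 0.57, Srp72 at 9.69 ± 0.48 and Sec61b at 9.66 ± 0.83 to Srprb. Srp14 and Sec62 overlapped in range, as did Srpr, Srp19 and Sec61a1 among themselves, and Srp72 with Sec61b. At 24 h Srpr was last, at 2.19 ± 0.37 CPM per kb (SD, n = 4), and its range of 1.90 to 2.70 lay below that of Srprb, 3.30 to 3.77. Receptor subunit genes thus changed order, from Srpr above Srprb in all vehicle mice to Srpr below Srprb in all mice at 24 h. This order rests on the fall for which Srpr was chosen and is only a description. At 48 h Srpr was again last, at 2.79 ± 0.95 (SD, n = 4), with a range that overlapped that of Srprb at 3.02 ± 0.57 (SD, n = 4). Srp72 stood 4th at 24 h, at 24.4 ± 2.43 CPM per kb (SD, n = 4), above Srp68 at 14.1 ± 1.31 (SD, n = 4), whereas with vehicle it stood 8th and below Srp68.

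Of the 3 genes that overlap the Srpr model, Foxred1 fell at both early times. Foxred1 was at 234, 281, 237 and 264 CPM with vehicle, at 96.3, 110, 130 and 101 CPM at 24 h and at 84.8, 130, 101 and 113 CPM at 48 h. The log2 differences were -1.22 (SE 0.27, adjusted p = 0.00596) and -1.24 (SE 0.27, adjusted p = 0.00448), and both calls held in all 8 fits that left out a mouse. With the 18S pseudogene share as a covariate they were 0.12 and 0.14, and with the mitochondrial share -0.81 (adjusted p = 0.0839) and -0.53 (adjusted p = 0.57), so the calls were lost with each covariate. The 18S share cannot be told apart from the group at either time, nor the mitochondrial share at 48 h. At 7 days Foxred1 was at 246, 105, 341 and 132 CPM, with mice 2 and 4 again below the other mice, and the difference of -0.30 (SE 0.27, adjusted p = 0.598) did not pass. Foxred1 stood at 43.0% and 42.3% of its vehicle mean at the early times, a smaller difference than that of Srpr.

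Fam118b and Tirap gave no call at any time. Fam118b was at 32.0 to 48.9 CPM with vehicle, 26.4 to 72.0 CPM at 24 h, 27.9 to 43.4 CPM at 48 h and 39.3 to 51.1 CPM at 7 days. Its log2 differences were -0.05, -0.26 and 0.11 (SE 0.26 each, adjusted p = 0.905, 0.457 and 0.853), and the sign at 24 h turned with total-count scaling (0.05). Tirap was low throughout, at 2.96 to 6.61 CPM with vehicle and 0.90 to 6.47 CPM in the drug groups, with differences of -0.10, -0.36 and -0.44 (SE 0.47, 0.48 and 0.47, adjusted p = 0.891, 0.587 and 0.663). The 24 h sign of Tirap was also positive under total-count scaling (0.00478).

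**Figure D4:**
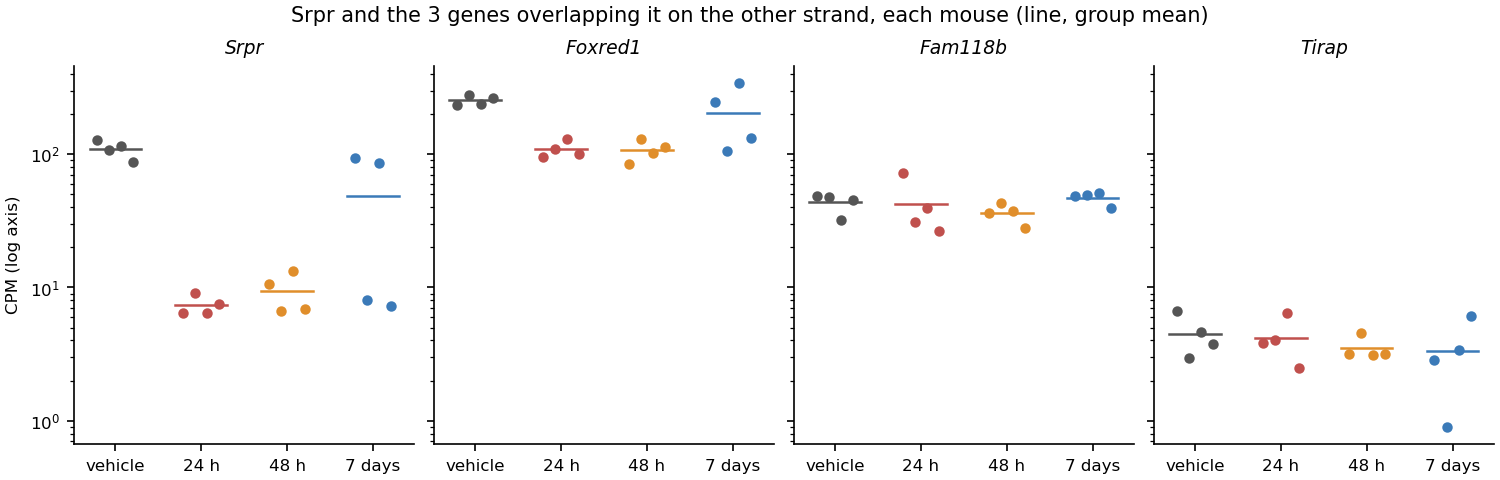
CPM on a log axis of Srpr and of Foxred1, Fam118b and Tirap, which overlap its model on the other strand, by group with 1 point per mouse and a line at the group mean. Srpr and Foxred1 are both low at 24 h and 48 h and in mice 2 and 4 at 7 days, and Fam118b and Tirap overlap vehicle at all times.

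Among the other members, 3 have an exon overlap with another gene, always on the other strand. Gm17968 shares 784 exon bases with Srp9 and Gm44170 shares 549 with Sec61a1. All exon bases of both are shared, and reads on shared bases are left out, so their counts of 0 in every mouse say nothing of their expression. 4933429H19Rik shares 509 bases with Sec62, 51.2% of its own exon bases, and was counted at no more than 0.378 CPM on the rest. Srprb, Srp14, Srp19, Srp68, Srp72 and Sec61b overlap no other gene, and Sec61b and Sec61a1 start head to head with Alg2 and Gm44430 at distances of 325 and 108 bases.

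Over the 16 mice, the genes whose log2 CPM was most like that of Srpr among the 12793 genes whose mean log2 CPM was 2 or more were Nrip3 (Pearson r = 0.980), Tm6sf1 (0.978), Gm29170 (0.976), Rab3gap2 (0.976) and Ankrd11 (0.974). These correlations are descriptions over mice that share group, depth and 18S pseudogene share. Tm6sf1 had the widest ratio of the 5 between vehicle and 24 h, from 109 ± 5.42 CPM (SD, n = 4) with vehicle to 12.4 ± 2.65 (SD, n = 4) at 24 h, and at 7 days it was at 104, 12.8, 110 and 12.3 CPM. Nrip3 was at 313, 85.4, 269 and 83.7 CPM in 7-day mice 1 to 4. The choice of these genes used the 7-day mice too, so that they divide those mice as Srpr does follows from the choice. Foxred1 ranked 296th with r = 0.914. Among members r was 0.752 for Srp9, 0.740 for Srp19, 0.659 for Srp68, 0.418 for Sec62, 0.120 for Sec61a1, -0.341 for Sec61b, -0.567 for Srp14, -0.672 for Srprb and -0.972 for Srp72. Srp72 thus ranked 12760th of 12793, near the opposite end.

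Other genes of protein entry into the endoplasmic reticulum were read from 9 lists holding 62 genes, of which 59 were tested. At 24 h 14 passed, 2 higher and 12 lower, a share of 23.7% beside the background of 24.2%. At 48 h 18 passed, 3 higher and 15 lower, a share of 30.5% beside 30.1%. Their median log2 difference was -0.29 and -0.24 at these times, against 0.03 and 0.02 over all genes. At 7 days 0 passed in edgeR, DESeq2 or limma voom, and 7 were below an unadjusted p of 0.05 in edgeR, where 16.8% of all genes were. Without vehicle mouse 1 the counts fell to 8 at 24 h and 9 at 48 h, where the share of all genes called fell to 13.9% and 19.0%, and without 24 h mouse 4 to 9 at 24 h, where it fell to 13.9%. With the 18S pseudogene share or the mitochondrial share as a covariate 0 passed at either time. Of all genes 0% passed at both times with the first, and 1.47% at 24 h and 0% at 48 h with the second.

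The signal peptidase and the oligosaccharyltransferase act on chains as they leave the channel. Over all genes, lower calls made up 10.4% at 24 h and 13.3% at 48 h, and the lists were not tested against that background. Of 5 signal peptidase genes, which cut off the signal sequence, 3 fell at both times: Spcs3 (log2 difference -1.13 at 24 h and -1.14 at 48 h, adjusted p = 0.00555 and 0.00425), Spcs2 (-0.82 and -0.91, adjusted p = 0.0257 and 0.0129) and Sec11c (-0.57 and -0.63, adjusted p = 0.0156 and 0.00754). Spcs3 was at 157, 123, 137 and 143 CPM with vehicle, 50.7, 70.8, 80.8 and 53.4 CPM at 24 h and 66.4, 42.5, 66.9 and 77.8 CPM at 48 h, without overlap. At 7 days Spcs3 was at 146, 74.3, 127 and 65.9 CPM, so mice 2 and 4 were again apart. Of 12 oligosaccharyltransferase genes, which attach sugar chains, Stt3a fell at both times (-0.53 and -0.55, adjusted p = 0.0299 and 0.0223) and Rpn1 at 48 h (-0.87, adjusted p = 0.0348), and the other 10 gave no call at either time. Not every called gene divided the 7-day mice: Stt3a was at 61.0 to 74.8 CPM in them, below every vehicle mouse (78.7 to 116 CPM).

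Chaperones of the lumen and the stress sensors of the compartment were next. Hspa5, the main lumenal Hsp70 chaperone, which also pulls chains through the channel, fell at 24 h and 48 h (-1.18 and -1.21, SE 0.33 each, adjusted p = 0.0173 and 0.0122), from 639 to 1175 CPM with vehicle to 173 to 501 and 217 to 435 CPM. Hyou1, its nucleotide exchange factor, fell too (-1.47 and -1.88, adjusted p = 0.0316 and 0.00908). At 7 days Hyou1 was at 57.1, 15.1, 56.4 and 10.6 CPM. The other 3 of 5 chaperone genes gave no call, where 24.2% and 30.1% of all genes were called. In the list of the unfolded protein response (6 genes tested), Xbp1 (-1.14 and -1.27, adjusted p = 0.0114 and 0.00553) and Eif2ak3, the gene of the kinase PERK (-0.81 and -0.61, adjusted p = 0.0146 and 0.0413), fell at both times, while Atf4 rose (0.64 and 0.51, adjusted p = 0.0135 and 0.0316). Atf6, Ern1 and Herpud1 gave no call at either time. The list thus had 3 of 6 tested genes called at each time, where 24.2% and 30.1% of all genes were called.

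Other lists covered the insertion of tail-anchored proteins, with 3 of 7 genes called at 24 h and 4 at 48 h, the ER membrane protein complex, with 1 and 2 of 10, and partners of the channel, with 1 and 2 of 9 tested, where 24.2% and 30.1% of all genes were called. Of 7 genes for insertion of tail-anchored proteins, Ubl4a (-1.36 and -1.59, adjusted p = 0.01 and 0.00382) and Wrb (-0.70 and -0.82, adjusted p = 0.0451 and 0.0192) fell at both times and Get4 at 48 h (-1.06, adjusted p = 0.016), while Bag6, the scaffold of the complex that holds Ubl4a and Get4, rose by 0.87 and 0.86 (adjusted p = 0.0109 and 0.00872). Ubl4a stood at 177, 59.8, 190 and 61.6 CPM in 7-day mice 1 to 4, against 168 to 204 CPM with vehicle. Of 10 genes of the ER membrane protein complex, Emc1 fell at both times (-0.89 and -0.74, adjusted p = 0.0265 and 0.0474) and Emc10 rose at 48 h (0.81, adjusted p = 0.0445). Of 9 tested partners of the channel, Ssr1, a subunit of the translocon-associated protein complex, fell at both times (-0.69 and -0.67, adjusted p = 0.0132 and 0.0123) and Sec61a2, the second gene for the pore subunit, at 48 h (-0.52, adjusted p = 0.0201). Sec61a2 was at 224 to 319 CPM with vehicle and 168 to 202 CPM at 48 h, a difference not called in Sec61a1, and whether these genes differ in response was not tested.

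The signal-binding subunit of the particle is encoded in the mouse by nearly identical gene copies, which leaves counts for each copy uncertain. Srp54c, the most abundant of the 3 listed copies, was at 10.4 to 14.1 CPM with vehicle, 2.60 to 11.9 CPM at 24 h, 4.02 to 11.0 CPM at 48 h and 6.86 to 12.2 CPM at 7 days. Its differences of -0.76 and -0.80 (adjusted p = 0.195 and 0.161) did not pass. Srp54a gave no call either, and Srp54b, at 0 counts in all mice but 1, was not tested. Tmem208, of a targeting route that does not need the particle, was at 151 to 202 CPM with vehicle, 190 to 257 CPM at 24 h, 173 to 235 CPM at 48 h and 196 to 278 CPM at 7 days. Its differences of 0.32, 0.19 and 0.44 (SE 0.17 each, adjusted p = 0.184, 0.428 and 0.212) did not pass, and neither of the other genes of its list, Naca and Btf3, was called.

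Not all of these calls held when a mouse was left out. Ubl4a, Xbp1, Ssr1, Bag6, Sec11c and Spcs3 were called at both times in all 8 such fits, as were Atf4 at 24 h and Hyou1 and Spcs2 at 48 h. At 24 h Eif2ak3 was called in 7 of the 8 fits and Hspa5 in 6, both lost without vehicle mouse 1 and Hspa5 also without 24 h mouse 4. Spcs2, Wrb and Emc1 were called in 4 each and lost without vehicle mice 1 and 2 and 24 h mice 1 and 4. Stt3a was called in 3 (adjusted p from 0.0263 to 0.105), and its call ended without vehicle mice 1, 3 and 4 and 24 h mice 1 and 2. Hyou1 at 24 h was called in 2 (0.0303 to 0.0881), the fits without 24 h mouse 2 and without 24 h mouse 3. At 48 h Hspa5 was called in 7, lost without vehicle mouse 1. Wrb, Stt3a, Get4 and Sec61a2 were called in 6 each, all lost without vehicle mouse 1, Wrb and Stt3a also without 48 h mouse 2 and Get4 and Sec61a2 also without 48 h mouse 3. The 48 h call of Rpn1 held in 4 fits (0.0362 to 0.148), ending without vehicle mice 1 and 2 and 48 h mice 2 and 3, and that of Emc10 in 3 (0.0409 to 0.13), ending without vehicle mice 2 to 4 and 48 h mice 1 and 4. Eif2ak3 at 48 h was called in 2 (0.0217 to 0.133), without vehicle mouse 3 and without 48 h mouse 1, Atf4 in 1 (0.0391 to 0.104), without 48 h mouse 2, and Emc1 in none of the 8 (0.0635 to 0.113). The direction of each of these genes was the same in all of these fits. Of the 10 planned settings with all mice, calls at 24 h were lost for Wrb in 5, Stt3a in 3 and Atf4 in 1, with adjusted p up to 0.101, 0.0785 and 0.0587. At 48 h they were lost for Eif2ak3 in 5 (up to 0.0785), Emc1 in 4 (0.0715), Emc10 in 2 (0.0686), Stt3a in 2 (0.0645), and Sec61a2 (0.0581), Rpn1 (0.0502) and Atf4 (0.183) in 1 each. The other pathway calls named above held in all 10.

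**Figure D5:**
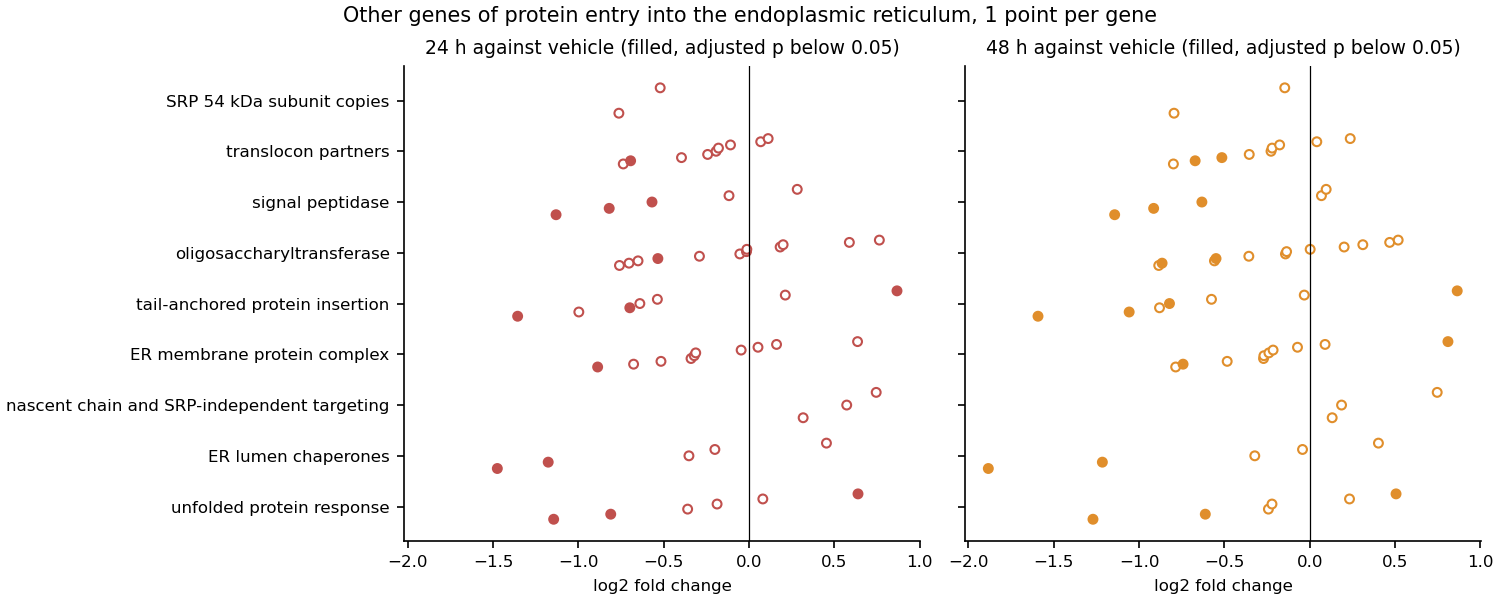
Log2 fold change (horizontal axis) of the 59 tested genes of the 9 other lists at 24 h and 48 h against vehicle, 1 point per gene, filled where the adjusted p was below 0.05. The lowest filled points are Hyou1, a chaperone gene, at -1.47 and -1.88 and Ubl4a, a gene of tail-anchored insertion, at -1.36 and -1.59.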

How the data were processed

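The values deposited by the authors are raw counts per Ensembl gene of GRCm38, made from exons with featureCounts 2.0.0, per the file headers. The recorded call sets nothing for strand, pairs, multi-mapped reads or gene overlaps, so defaults applied, and the aligner of the RNA reads is not given in the sources used here. The header of 3 mice (24 h mouse 1, 48 h mouse 2 and 7-day mouse 2) carried the number 6 in place of the label's number, and the group of all 32 libraries was that of the label. The 52 H3K27ac and input samples were not analysed here. Both libraries of each mouse were added up before any test. No label says that mice came from separate litters, so p-values measure the spread between these mice. Genes were filtered with filterByExpr, scaled with TMM and fitted with edgeR 4.0.16 (quasi-likelihood F test, R 4.3.3) over all 4 groups, with Benjamini-Hochberg adjustment over 17941 genes and a threshold of 0.05, and SE was derived from the log2 fold change and F. The 4 groups shared 1 estimate of spread per gene, so SE and p-values at 24 h and 48 h also draw on the spread of the 7-day mice. Alternatives were DESeq2 1.42.0, limma 3.58.1 (voom with quality weights per mouse, called limma voom throughout), other scaling and filters, single libraries, only the groups compared, a mouse number block, and each mouse left out. Added after seeing the data were 2 covariates, thinned counts and a fit without 2 mice. Log2 CPM used a prior count of 2. Members and lists were chosen with earlier results of these data known. Named were all members, the genes overlapping Srpr, up to 3 called genes of each list per direction (else the most abundant per kb), and the 5 genes most like Srpr. Symbols came from the gene name table given. Ddit3 had 2 IDs and was left out, and Camlg was matched by a synonym.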

Additional observations from a re-analysis of the deposited data

Results flagged for a closer look

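In 5 of the 52 groups of 4 mice examined (10 members and 3 overlapping genes, 4 groups each), a single mouse lay apart from the other mice by Dixon's criterion, where chance alone flags about 5% of groups, here 2.6. Srp9 in 7-day mouse 1 was at 69.6 CPM with the nearest mouse at 47.9 CPM. Srp14 in 48 h mouse 3 was at 138 CPM with the nearest at 114 CPM. Sec61a1 in 48 h mouse 4 was at 223 CPM with the nearest at 173 CPM. Sec62 in vehicle mouse 1 was at 383 CPM with the nearest at 280 CPM. Tirap in 48 h mouse 2 was at 4.52 CPM with the nearest at 3.19 CPM. In each case the mouse was the highest of its group.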

How the results depend on the processing

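Results were recomputed with each mouse left out and under 10 other planned and 4 added settings. Members called numbered 3 at 24 h, with 1 to 2 when a mouse was left out and 1 without the 2 mice with fewest genes detected (18.3% of all genes), and 3 at 48 h. With the 18S pseudogene share as a covariate they numbered 0 at both times, and with the mitochondrial share also 0 at both (0% of all genes in each case but 1.47% at 24 h with the mitochondrial share). At 7 days, where 0 were called, DESeq2 and the fit with no filter each called 1 (where they called 4.44% and 2.62% of all genes), and leaving out a mouse gave 0 to 1. Other pathway genes called numbered 14 at 24 h, with 24 under limma voom and 22 with only the groups compared (fits that called 40.3% and 36.7% of all genes), 8 without the 2 mice with fewest genes detected, 0 with each covariate and 8 to 15 with a mouse left out (13.9% to 21.2% of all genes). At 48 h they numbered 18, with 28 under limma voom (43.4% of all genes), 0 with each covariate and 9 to 16 with a mouse left out (19.0% to 26.4%), and at 7 days 0, with 0 to 2 (0% to 7.26%). The mouse numbers do not pair the samples: deviations of same-numbered mice correlated at -0.0477 on average (-0.345 to 0.299). With the number as a replicate block, 2 members were called at 24 h, 3 at 48 h and 0 at 7 days, and 13, 15 and 0 other pathway genes, where 20.4%, 26.0% and 0% of all genes were. Under total-count scaling the median log2 difference of all genes was 0.14 at 24 h and 0.12 at 48 h, against 0.03 and 0.02 under TMM.

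Signs turned in the following cases, and the cause was not tested. With the 18S pseudogene share as a covariate, log2 differences at 24 h were -0.23 for Srp14, 0.12 for Foxred1, 0.43 for Fam118b, -0.15 for Emc10, 0.13 for Ubl4a, 0.000858 for Xbp1, 0.60 for Get4, 0.46 for Hyou1 and 0.19 for Emc1. At 48 h they were -0.43 for Srp14, 0.11 for Srp68, -0.11 for Srp72, 0.14 for Foxred1, 0.26 for Fam118b, -0.0184 for Emc10, 0.28 for Get4, 0.0871 for Hyou1 and 0.37 for Emc1, and at 7 days -0.0736 for Srp14, 0.0489 for Srp68 and 0.11 for Foxred1. In that fit Srpr was at -0.63, -0.095 and -0.65 at the 3 times. With the mitochondrial share they were 0.10 for Fam118b at 24 h, -0.11 for Srp14 and 0.12 for Srp68 at 48 h, and 0.0475 for Srp68 at 7 days, and Srpr was at -3.10, -2.06 and -1.13. The other turns were in uncalled values near 0. Tirap at 24 h was 0.00688 under limma voom, 0.00478 with total counts and -0.395 to 0.146 with a mouse left out. Fam118b at 24 h was 0.0525 with total counts, 0.0401 with a filter of 10 CPM in 4 mice, 0.0211 with library 2 alone, 0.0321 with thinned counts and -0.43 to 0.11 with a mouse left out, and at 7 days -0.00734 to 0.19. Sec61a1 at 48 h was -0.0398 with no filter and -0.104 to 0.0904 with a mouse left out, and at 7 days -0.00502 with library 2 alone and -0.0363 to 0.0908. Sec62 at 7 days was 0.00932 under limma voom, 0.00792 with total counts and -0.12 to 0.10 with a mouse left out, Sec61b at 7 days -0.0287 to 0.315 and Srp68 at 7 days -0.175 to 0.0676. Over the log2 differences of the tested members, neighbours and named listed genes, 838 alternative values with all mice or without the 2 mice stayed on their side of the threshold in the same direction, 119 kept the direction but no longer passed, 13 came to pass and 35 turned. Of the values of Srpr, which was not tested, 37 moved by less than their SE and 5 by more than their SE (the 4 covariate values at 24 h and 48 h, and -1.85 under limma voom at 7 days).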
